A study of Arabidopsis thaliana with 24 samples.

Results

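The genes described here are 10 DOF transcription factor genes of the root vasculature, chosen by their loci: PEAR1 (AT2G37590), PEAR2 (AT5G02460), DOF6 (AT3G45610), TMO6 (AT5G60200), OBP2 (AT1G07640), HCA2 (AT5G62940), DOF1.6 (AT1G47655), DOF2.1 (AT2G28510), OBP1 (AT3G50410) and DOF5.8 (AT5G66940). Of the 34212 genes in the count table, 9 of these 10 had a row, and TMO6 was not analysed here. DOF5.8 had 0 to 10 counts in a library and did not pass the filter on low counts in any comparison, so 8 genes were tested. The 36 listed loci of the whole DOF family, 35 of them with a row, served as the nearest group for comparison.

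All libraries came from main root segments of homozygous pANT:XVE>>axr3-1-YFP plants, which were 9 d old when treatment began. In this line the promoter of ANT, a cambium gene, drives an estradiol-activated factor that switches on axr3-1-YFP. AXR3-1 is a stabilised Aux/IAA repressor that blocks auxin responses. Plants received EST + BAP, EST (5 µM estradiol), BAP (1 µM of the cytokinin 6-benzylaminopurine) or DMSO for 4 h or 24 h, with 3 libraries in each of the 8 groups. All groups, DMSO included, carry the transgene, and plants without it were not analysed here. An effect of estradiol itself and an effect of axr3-1 therefore cannot be told apart. The study describes the line as a single-insertion homozygote. Each library is a bulk of root tissue, so fewer cells of a type and less RNA per cell cannot be told apart, and the 4 h and 24 h treatments were harvested as separate experiments.

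DOF proteins are plant-specific zinc finger factors that bind DNA around an AAAG core. The PEAR proteins (PEAR1, PEAR2, DOF6 and TMO6) are made in early phloem cells, are induced by cytokinin, move to neighbouring procambial cells and promote the divisions that thicken the vascular cylinder, with OBP2 and HCA2 acting alongside them. Auxin enters this network through MONOPTEROS (MP) and the TMO5-LHW dimer, which raises cytokinin synthesis through LOG3 and LOG4, and class III HD-ZIP factors restrict PEAR activity towards the centre of the root. HCA2 takes its name from a high cambial activity mutant, and OBP2 is also known from the control of glucosinolate synthesis. DOF2.1 acts downstream of TMO5 and LHW, OBP1 is known from cell cycle control, and DOF1.6 is a gene of the cambium and pericycle.

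The upstream sequence of the 3 genes with a called EST by BAP interaction is shown, since these are the genes on which the results at 24 h turn. Each run is the 300 bases before the annotated gene start in TAIR10.1 (RefSeq), 5′ to 3′ on the gene's strand, and capitals mark AGATT, the core of the type-B ARR cytokinin response motif, TGTCTC or TGTCGG, the auxin response elements, on either strand. PEAR1 (chr2:15768786-15769085, + strand), HCA2 (chr5:25258705-25259004, - strand) and DOF2.1 (chr2:12200781-12201080, - strand) read as follows.
PEAR1: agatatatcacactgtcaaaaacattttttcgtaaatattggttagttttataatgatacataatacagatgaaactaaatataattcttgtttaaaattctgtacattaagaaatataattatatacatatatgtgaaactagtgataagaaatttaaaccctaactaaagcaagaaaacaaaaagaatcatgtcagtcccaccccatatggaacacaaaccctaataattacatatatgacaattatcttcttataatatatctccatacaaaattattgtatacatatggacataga
HCA2: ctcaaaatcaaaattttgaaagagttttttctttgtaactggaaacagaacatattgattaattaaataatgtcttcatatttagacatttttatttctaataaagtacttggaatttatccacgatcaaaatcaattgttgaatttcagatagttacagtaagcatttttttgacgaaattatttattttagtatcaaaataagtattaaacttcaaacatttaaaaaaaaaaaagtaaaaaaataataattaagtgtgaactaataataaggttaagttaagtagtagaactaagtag
DOF2.1: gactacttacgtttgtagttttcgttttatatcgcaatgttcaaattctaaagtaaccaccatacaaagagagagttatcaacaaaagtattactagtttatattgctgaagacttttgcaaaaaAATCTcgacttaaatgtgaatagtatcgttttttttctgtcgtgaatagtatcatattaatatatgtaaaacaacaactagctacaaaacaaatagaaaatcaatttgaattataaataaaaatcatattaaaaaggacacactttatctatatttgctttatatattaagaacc
AGATT was found once in DOF2.1 and DOF6, at 2 places in OBP1 and at 3 in DOF5.8, and 0 times in PEAR1, PEAR2, OBP2, HCA2 and DOF1.6. Of 27443 promoters of this length in the genome, 70.7% hold AGATT, 13% hold TGTCTC and 4.91% hold TGTCGG. The DOF6 promoter held TGTCTC 2 times and the other 8 did not hold it, and no promoter of the 9 held TGTCGG. A match is a description of the letters only, and a link between these motifs and the changes described below was not tested.

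The libraries held 14514022 to 45586679 counts. DMSO 24 h replicate 1 and BAP 24 h replicate 1 stood apart, with 58.6% and 37.5% of their counts on organelle and ribosomal RNA genes and 6001669 and 15748246 counts on other nuclear genes, so results that use them are also given without them where a call changes. AXR3 (AT1G04250), whose counts hold both the native gene and the transgene, averaged 283, 158 and 165 CPM (normalised read counts, scaled by TMM to a common library size) in EST + BAP, EST and BAP roots at 4 h, against 48.9 CPM in DMSO roots. At 24 h it averaged 151, 85.3 and 211 CPM in these treatments, against 72.6 CPM in DMSO roots, so the EST group at 24 h lay closest to DMSO.

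Per kilobase of exon, DOF2.1 was by far the most abundant of the 9, at 62.5 CPM per kb over all libraries. OBP1 followed at 8.14, DOF1.6 at 6.77 and OBP2 at 3.88 CPM per kb, the last against an exon length that spans the whole gene. PEAR2, HCA2, DOF6 and PEAR1 lay at 2.22, 2.13, 1.67 and 1.6 CPM per kb, and DOF5.8 at 0.142. PEAR1 varied the most of the 8 tested genes over the 8 group means, by 6.02-fold between BAP 24 h and EST 24 h, and DOF6 the least, by 1.38-fold. The plot of levels by library shows these ranges.

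**Figure D1:**
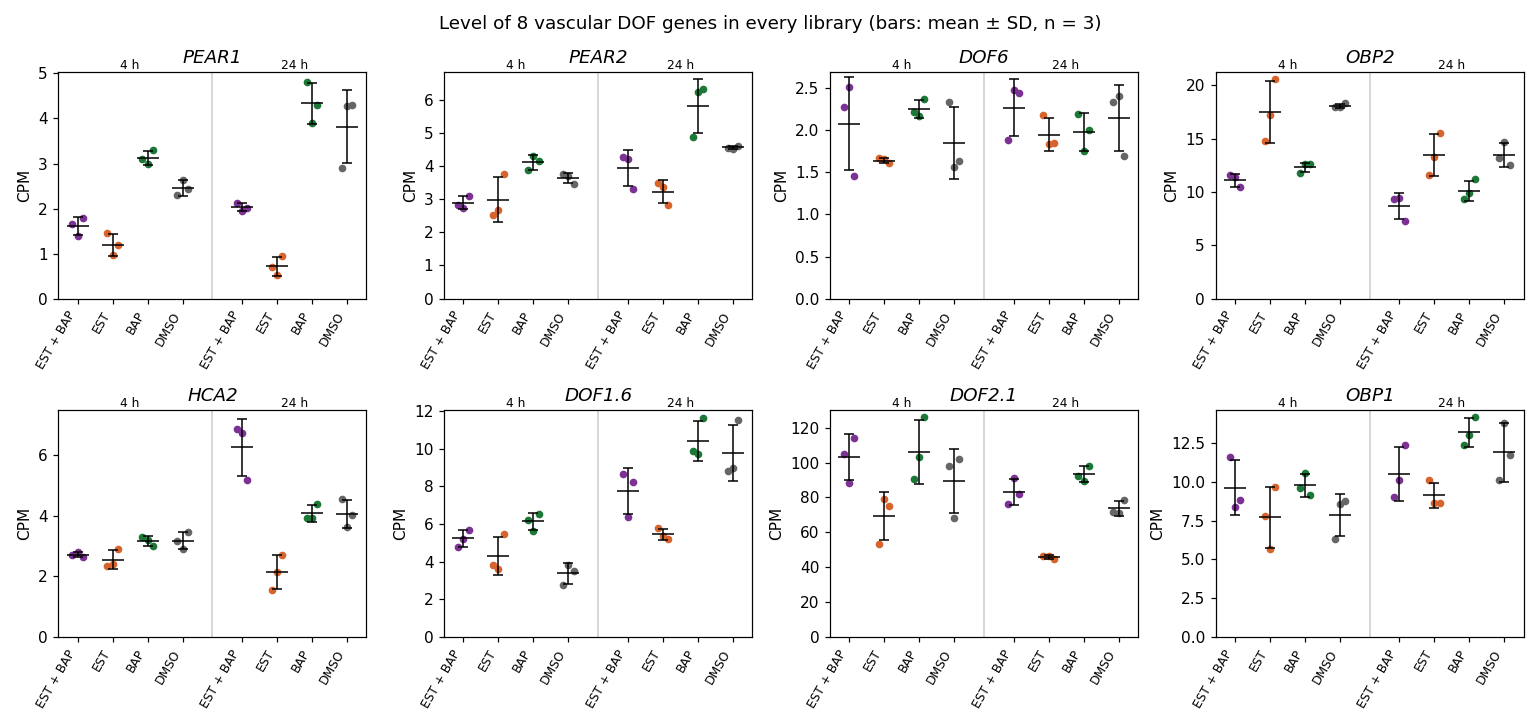
CPM (normalised read counts, vertical axis, starting at 0) of the 8 tested vascular DOF genes in all 24 libraries, by treatment within 4 h and 24 h; points are libraries, bars the mean ± SD of 3. PEAR1 sits at 0.525 to 0.94 CPM in the EST libraries at 24 h, under every other library, and HCA2 at 5.16 to 6.87 CPM in EST + BAP at 24 h, above every other library.

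EST alone for 4 h was compared with DMSO at 4 h. PEAR1 had 1.45, 0.963 and 1.2 CPM in EST roots, against 2.29, 2.63 and 2.43 CPM in DMSO roots. The groups did not overlap and the level was 0.493 times that of DMSO, but with a log2 fold change of -1.02 (SE 0.22, unadjusted p = 0.00209 by edgeR's quasi-likelihood test) it did not pass adjustment over all genes (adjusted p = 1). HCA2 (-0.31) was the other of the 8 whose groups did not overlap. How many of all genes had such groups was not counted in any comparison. None of the 8 genes was called, and of all 21574 genes 0.00927% were called higher and 0.00464% lower. An unadjusted p under 0.05 was found for 1 of the 8, beside 553 of all genes, and DESeq2 called 0. To be called, a gene had to differ by 0.5 or more on the log2 scale with an adjusted p no higher than 0.05. No cell type marker was called here, and the cambium marker ANT had -0.88. Summed epidermis and root hair markers lay at 3.19 to 30.1 CPM in EST roots and 2.11 to 12.2 CPM in DMSO roots. Endodermis markers summed to 15.3 to 46.1 CPM in EST roots and 9.29 to 23.5 CPM in DMSO roots. The part of these markers was not tested.

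BAP alone for 4 h raised DOF1.6 and lowered OBP2. DOF1.6 had 6.22, 5.62 and 6.54 CPM in BAP roots, against 2.76, 3.84 and 3.52 CPM in DMSO roots, and rose 1.79-fold (log2 fold change 0.84, SE 0.15, adjusted p = 0.00596). OBP2 had 11.8, 12.6 and 12.6 CPM in BAP roots, against 18, 18 and 18.3 CPM in DMSO roots, and fell to 0.673 times that level (-0.57, SE 0.07, adjusted p = 0.00205). Neither pair of groups overlapped, and these were 1 gene higher and 1 lower of 8, beside 9.64% of all tested genes higher and 7.14% lower. The PEAR genes were not called: PEAR1 had a log2 fold change of 0.34 (adjusted p = 0.124) with groups that did not overlap, PEAR2 0.16 and DOF6 0.27. Of the cell type markers ANT rose (0.74), with a summed level of the cambium markers (ANT, WOX4 and PXY) of 222 to 254 CPM in BAP roots against 132 to 189 CPM in DMSO roots, and LHCB1.2 (-3.66) and LHCB1.3 (-0.96) of leaf photosynthesis fell. Their part was not tested.

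EST + BAP for 4 h gave the same 2 calls against DMSO. OBP2 fell by 0.72 on the log2 scale (SE 0.08, adjusted p = 0.00271), with 11.6, 11.4 and 10.5 CPM in EST + BAP roots, and DOF1.6 rose by 0.61 (SE 0.16, adjusted p = 0.0366), with 4.78, 5.22 and 5.68 CPM. The DOF1.6 call was lost when any of the 6 libraries was left out. Again 1 gene was higher and 1 lower, beside 6.38% and 4.65% of all genes, and PEAR1 had -0.63 (adjusted p = 0.0555). DESeq2 called 3 of the 8, PEAR1 among them (adjusted p = 0.0449), and PEAR1 was also called by edgeR with all groups of the time in 1 fit (adjusted p = 0.0354). APL of the phloem (-0.56) and LHCB1.3 (adjusted p = 0.0358) were the markers that fell, and their part was not tested.

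Between the combination and its parts at 4 h, 1 call was made. OBP2 was lower in EST + BAP than in EST roots (-0.67, SE 0.13, adjusted p = 0.0225), where EST roots had 14.8, 17.2 and 20.6 CPM. This call was lost without any EST + BAP library or without EST 4 h replicate 2. ANT, the 1 marker called in that comparison, was higher (1.15), and its part was not tested. The shares of all genes were 4.16% higher and 3.39% lower. DOF2.1 was not called in that comparison (log2 fold change 0.56, SE 0.17, adjusted p = 0.0837), but DESeq2 called it. Against BAP, PEAR1 had 1.65, 1.38 and 1.79 CPM in EST + BAP roots and 3.1, 3 and 3.3 CPM in BAP roots, a log2 fold change of -0.95 (SE 0.17, adjusted p = 0.0698) that was not called. None of the 8 genes was called there, and 0.19% of all genes were higher and 0.144% lower. Of the 8, 2 had an unadjusted p under 0.05, beside 2747 of all 21530 genes, and DESeq2 called 1, PEAR1. No EST by BAP interaction was called at 4 h for any of these genes or any gene (0% positive and 0% negative). An unadjusted p under 0.05 was found for 1 of the 8, beside 893 of all 21933 genes, and DESeq2 called 0.

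After 24 h of EST, 4 of the 8 genes were lower than in DMSO and 0 higher, beside 8.96% of all 21235 tested genes lower and 6.26% higher. PEAR1 had 0.698, 0.525 and 0.94 CPM in EST roots, against 2.89, 4.28 and 4.29 CPM in DMSO roots, and fell to 0.183 times the DMSO level (log2 fold change -2.45, SE 0.26, adjusted p = 3.16e-04). The EST libraries held 25, 16 and 28 counts of PEAR1. HCA2 had 1.56, 2.13 and 2.69 CPM in EST roots, against 4.55, 3.61 and 4.01 CPM in DMSO roots (-0.91, SE 0.22, adjusted p = 0.0182). In neither gene did the groups overlap. Without DMSO 24 h replicate 3 the HCA2 call was lost, at an adjusted p of 0.0642.

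DOF1.6 had 5.78, 5.38 and 5.21 CPM in EST roots at 24 h, against 8.82, 8.96 and 11.5 CPM in DMSO roots (log2 fold change -0.85, SE 0.13, adjusted p = 0.00223). DOF2.1 had 46.5, 46.2 and 44.6 CPM in EST roots, against 71.5, 71.2 and 78.6 CPM in DMSO roots (-0.69, SE 0.08, adjusted p = 4.01e-04). Both fell in all 3 libraries below every DMSO library. PEAR2, with 3.49, 3.38 and 2.82 CPM in EST roots and 4.55, 4.53 and 4.62 CPM in DMSO roots, passed the adjusted p (0.0432) but its log2 fold change of -0.50 stood just under the cutoff before rounding. OBP1 had -0.41 (adjusted p = 0.0504), DOF6 -0.12, and OBP2 -0.01 with a 95% interval of -0.29 to 0.27. The 4 calls without DMSO 24 h replicate 1 were of the same 4 genes, with PEAR1 at -2.57 and HCA2 at -0.85.

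Marker genes moved in the same comparison. All 3 cambium markers (ANT, WOX4, PXY) fell, and their summed level was 102 to 105 CPM in EST roots against 239 to 283 CPM in DMSO roots at 24 h. Of the phloem markers, CALS7, APL and SEOR1 fell and SUC2 was not called, with a sum of 85.4 to 87.1 CPM in EST roots against 148 to 176 CPM in DMSO roots. Of the xylem markers, 0 of 3 were called (166 to 219 CPM in EST roots against 150 to 163 CPM in DMSO roots), and 0 of 3 endodermis, 0 of 3 epidermis and 0 of 3 leaf photosynthesis markers were called. The part of these markers in the DOF results was not tested, and ANT, whose promoter drives the transgene, was among those that fell.

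**Figure D2:**
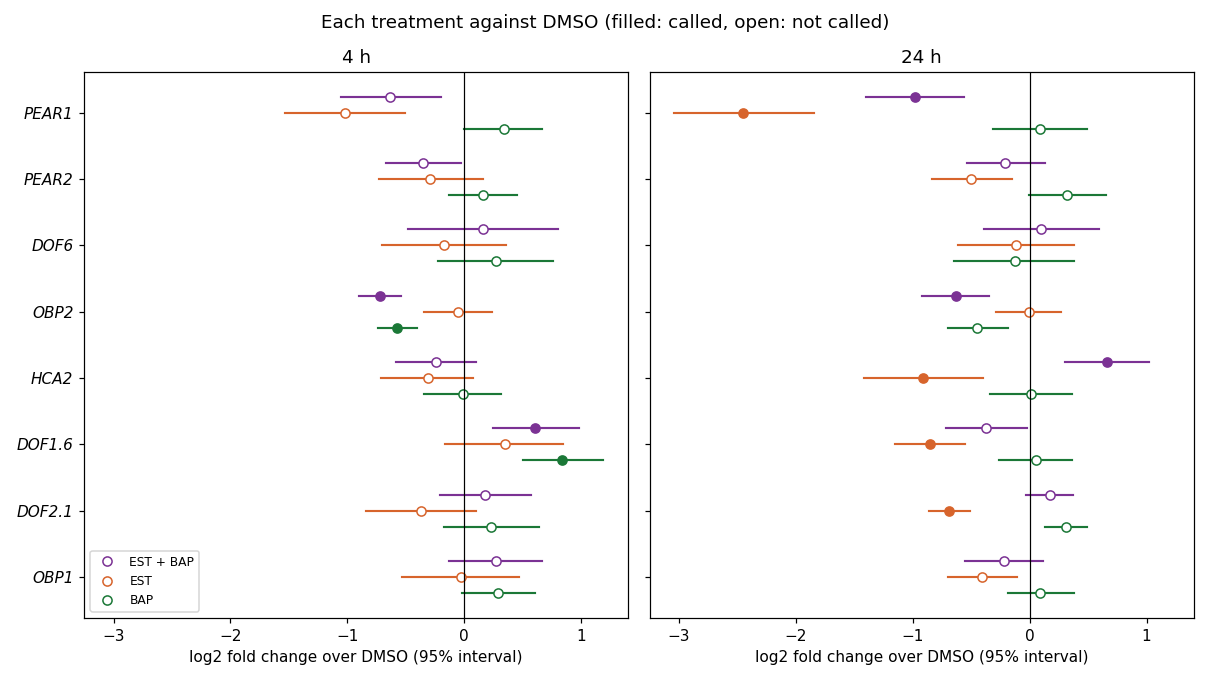
Log2 fold change over DMSO (horizontal axis) with 95% interval for the 8 tested genes (rows) at 4 h and 24 h, by treatment; filled points were called and open points were not. PEAR1 at -2.45 in EST at 24 h lies farthest from 0, and HCA2 lies at 0.66 in EST + BAP and -0.91 in EST.

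BAP alone for 24 h called none of the 8 genes, although 17.6% of all tested genes were higher and 17.2% lower. Of the 8, 2 had an unadjusted p under 0.05, beside 11676 of all 20832 tested genes, and 0 were called by DESeq2. OBP2, with 9.32, 9.94 and 11.2 CPM in BAP roots against 13.2, 14.7 and 12.5 CPM in DMSO roots, had a log2 fold change of -0.45 (adjusted p = 0.0104), and DOF2.1, with 92.4, 89.4 and 98.2 CPM in BAP roots, had 0.31 (adjusted p = 0.0113). Both passed the p but not the fold. HCA2 had 0.01 (95% interval -0.34 to 0.36), PEAR1 0.09 (-0.31 to 0.49) and DOF1.6 0.05 (-0.26 to 0.36). All 3 leaf photosynthesis markers fell in this comparison, with a sum of 136 to 210 CPM in BAP roots against 482 to 591 CPM in DMSO roots. ANT (1.07) and MYB36 (1.13) rose and APL fell (-0.57). The part of these markers was not tested.

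After 24 h of EST + BAP, HCA2 was higher and PEAR1 and OBP2 were lower than in DMSO. HCA2 had 6.87, 6.72 and 5.16 CPM in EST + BAP roots, against 4.55, 3.61 and 4.01 CPM in DMSO roots, and was higher (log2 fold change 0.66, SE 0.16, adjusted p = 0.0112). PEAR1 had 2.12, 1.95 and 2.01 CPM in EST + BAP roots and stayed below all DMSO libraries (-0.98, SE 0.19, adjusted p = 0.00328). OBP2 fell to 9.34, 9.47 and 7.3 CPM (-0.63, SE 0.13, adjusted p = 0.0044). That is 1 gene higher and 2 lower of 8, beside 10.4% and 10% of all genes. The HCA2 call was lost without DMSO 24 h replicate 2 (adjusted p = 0.0587). Of the phloem markers CALS7 (-0.61), APL (-1.12) and SEOR1 (-1.49) were lower and SUC2 (0.59) higher, with a sum of 87.3 to 104 CPM in EST + BAP roots against 148 to 176 CPM in DMSO roots. VND7 of the xylem (0.65) and MYB36 (0.92) were higher, all 3 leaf photosynthesis markers were lower (264 to 309 CPM in sum in EST + BAP roots against 482 to 591 CPM in DMSO roots), and 0 of 3 cambium markers were called. Their part in the DOF values was not tested.

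Against BAP alone, EST + BAP at 24 h held HCA2 higher (0.64, SE 0.15, adjusted p = 0.00836), with BAP roots at 3.93, 3.91 and 4.39 CPM. PEAR1 was lower (-1.08, SE 0.15, adjusted p = 8.70e-04), with BAP roots at 4.82, 3.91 and 4.29 CPM. PEAR2 was lower as well (-0.54, SE 0.16, adjusted p = 0.0241), with 4.28, 4.23 and 3.32 CPM in EST + BAP roots and 4.87, 6.24 and 6.34 CPM in BAP roots. The PEAR2 call was lost without BAP 24 h replicate 2 or 3 or EST + BAP 24 h replicate 3. Of the 8 genes 1 was higher and 2 lower, beside 11.6% and 11.8% of all genes. The cambium marker sum was 216 to 248 CPM in EST + BAP roots against 356 to 447 CPM in BAP roots, and the phloem sum 87.3 to 104 CPM in EST + BAP roots against 133 to 135 CPM in BAP roots. WOX4, ANT, CALS7, APL and SEOR1 were lower, SUC2 was higher (0.85), and of the leaf photosynthesis markers LHCB1.3 (0.67) and RBCS1A (0.60) were higher. All 3 xylem markers were higher in EST + BAP roots (206 to 221 CPM in sum, against 119 to 131 CPM in BAP roots). Their part in the DOF results was not tested.

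Against EST alone, 3 of the 8 genes were higher and 1 lower in EST + BAP roots at 24 h, beside 16.5% and 13.8% of all genes. HCA2 was 2.96-fold higher (log2 fold change 1.56, SE 0.21, adjusted p = 3.11e-04), PEAR1 2.79-fold higher (1.48, SE 0.25, adjusted p = 0.00118) and DOF2.1 1.81-fold higher (0.86, SE 0.08, adjusted p = 4.70e-05), with 76.2, 91.1 and 82.1 CPM of DOF2.1 in EST + BAP roots. OBP2 was lower (-0.62, SE 0.14, adjusted p = 0.00475), and EST roots had 11.6, 13.3 and 15.5 CPM of it. DOF1.6, with 8.63, 6.36 and 8.22 CPM in EST + BAP roots, had 0.49 (adjusted p = 0.0162), under the fold cutoff. The groups did not overlap in 5 of the 8 genes, the 4 called genes among them, and the share of all genes with such groups was not counted. In the same comparison all 3 cambium markers were higher (216 to 248 CPM in EST + BAP roots against 102 to 105 CPM in EST roots), and the phloem sum was 87.3 to 104 CPM in EST + BAP roots against 85.4 to 87.1 CPM in EST roots, with SUC2 higher (0.65) and APL lower (-0.54). The endodermis marker MYB36 was higher (0.98), and all 3 leaf photosynthesis markers were lower (264 to 309 CPM in sum in EST + BAP roots against 471 to 729 CPM in EST roots). The part of these markers was not tested.

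The interaction test asks whether EST and BAP together differ from the sum of their single effects on the log2 scale. At 24 h it was positive for HCA2 (1.54, SE 0.27, adjusted p = 0.0168), PEAR1 (1.37, SE 0.29, adjusted p = 0.0403) and DOF2.1 (0.54, SE 0.11, adjusted p = 0.0326), that is 3 of 8 beside 0.98% of all genes positive, and 0 of 8 negative beside 0.423%. Of the markers, ANT (1.27) and XCP1 of the xylem (0.58) also had a called positive term, and their part was not tested. Without EST, BAP gave log2 fold changes of 0.01 for HCA2 and 0.09 for PEAR1, and on top of EST it gave 1.56 and 1.48. PEAR2 had an interaction of -0.04 (95% interval -0.50 to 0.41) and OBP2 of -0.19 (-0.59 to 0.21). The HCA2 call held on leaving out each of the 12 libraries in turn. The PEAR1 call held only without DMSO replicate 1 or EST replicate 3, and the DOF2.1 call only without DMSO replicate 2 or EST + BAP replicate 1. With DMSO replicate 1 and BAP replicate 1 both left out, a setting chosen after seeing the data, PEAR1 kept its call (1.55, adjusted p = 0.0488), and HCA2 (1.45, adjusted p = 0.0618) and DOF2.1 (0.53, adjusted p = 0.0861) lost theirs.

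**Figure D3:**
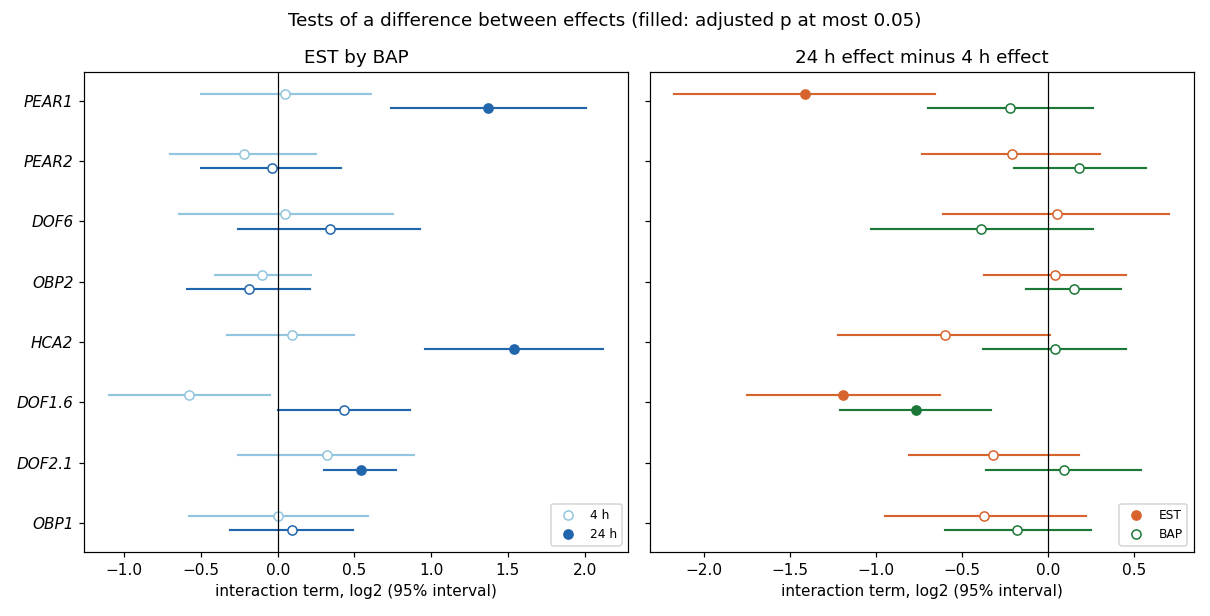
Interaction terms on the log2 scale (horizontal axis) with 95% interval for the 8 tested genes (rows): EST by BAP at each time on the left, the 24 h effect minus the 4 h effect of EST and of BAP on the right. Filled points have an adjusted p of at most 0.05; HCA2, PEAR1 and DOF2.1 are filled at 24 h, and DOF1.6 for both time terms.

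Time terms compared the 24 h effect with the 4 h effect. For EST they were called for PEAR1 (-1.41, SE 0.35, adjusted p = 0.0379) and DOF1.6 (-1.19, SE 0.26, adjusted p = 0.0237), 2 lower of 8 beside 3.26% of all genes negative and 1.92% positive. The EST effect on DOF1.6 was 0.35 at 4 h (95% interval -0.16 to 0.85), where it was not called, and -0.85 at 24 h. Of the markers, ANT (-1.70) and SEOR1 (-1.31) also had a called EST term, and their part was not tested. With the replicate number as a block the PEAR1 term had an adjusted p of 0.0565, and it also missed the threshold without 8 of the 12 libraries, held only without DMSO 24 h replicate 1, EST 24 h replicate 3 or EST 4 h replicate 2 or 3. The DOF1.6 term was lost without DMSO 24 h replicate 3, DMSO 4 h replicate 1 or EST 24 h replicate 2 or 3. For BAP, DOF1.6 was the 1 called gene of 8 (-0.77, SE 0.20, adjusted p = 0.042), beside 3.66% of all genes negative and 3.16% positive, with a BAP effect of 0.84 at 4 h and 0.05 at 24 h, and of the markers XCP1 (-0.46) was called. This last call held only without DMSO 4 h replicate 2 and was lost without each of the other 11 libraries. DMSO roots had 2.76 to 3.84 CPM of DOF1.6 at 4 h and 8.82 to 11.5 CPM at 24 h, so the controls of the separate experiments differed too.

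DOF6, the remaining PEAR gene with a row, had means between 1.64 and 2.27 CPM in the 8 groups, and all 7 neighbouring pairs in the order of its means overlapped. The same held for OBP1, with means between 7.71 and 13.2 CPM. This order mixes both times, and groups farther apart in it could still be separate. OBP1 had 9.15 to 10.6 CPM in BAP roots at 4 h and 6.32 to 8.74 CPM in DMSO roots at 4 h, a difference that was not called. For PEAR1 the order of means ran from BAP 24 h through DMSO 24 h, BAP 4 h, DMSO 4 h, EST + BAP 24 h, EST + BAP 4 h and EST 4 h to EST 24 h, with 3 of 7 neighbouring pairs overlapping. DOF5.8 had 3 counts in all in the EST 24 h group and 5 in EST 4 h, against 11 in DMSO 24 h and 20 in DMSO 4 h, too few to test. Over the 8 group means, which share libraries and times, DOF1.6 and OBP1 had a correlation of 0.97 and PEAR1 and PEAR2 of 0.85.

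Among 19695 genes with a mean of at least 1 CPM, the pattern most like that of PEAR1 over the 8 group means was that of AT2G41820 (Pearson r = 0.98 on log2(CPM + 0.5)), followed by AT3G15680 and AT2G40530. For HCA2 these were AT2G37160 (0.96), AT5G09462 and PTR5, and for DOF1.6 AT3G17900 (0.98), TRZ3 and AT2G10735. Each of these values describes 8 points and nothing more.

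In the auxin-cytokinin module, 6 of 7 listed genes were tested. LOG3, a cytokinin-activating enzyme, and TMO5, a bHLH factor, fell in EST roots at 24 h (-1.08 and -0.57), 0 of the 6 rose, beside 8.96% of all genes lower and 6.26% higher, and the median of the list was -0.49 beside 0.01 for all genes. MP (-0.49, adjusted p = 0.00668) and T5L1 (-0.50, adjusted p = 0.013) passed the adjusted p but not the fold. MP rose in BAP roots at 4 h (0.71) and 24 h (0.89) and was higher in EST + BAP than in EST roots at 24 h (1.43). T5L1, a relative of TMO5, rose in BAP roots at 24 h (0.67) and had 0.10 in EST + BAP over EST roots at 24 h. Against BAP alone at 4 h, LOG3 (-0.65) was lower in EST + BAP roots, 1 of the 6 beside 0.144% of all genes. At 24 h T5L1 (-1.07) and LOG3 (-0.68) were lower than in BAP roots, 2 of the 6 beside 11.8% of all genes. At either time 0 of the 6 were higher than in BAP roots, beside 0.19% of all genes at 4 h and 11.6% at 24 h. LHW had a log2 fold change of 0.05 in EST roots at 24 h and LOG4 of -0.06. AHP6, an inhibitor of cytokinin signalling, did not pass the filter on low counts.

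Of the 5 class III HD-ZIP genes, PHB (-0.81) and HB-8 (-0.60) fell in EST roots at 24 h, and the median was -0.42. CNA passed the adjusted p (0.00517) but not the fold (-0.42), and PHV had -0.05. PHB had 0.01 between EST + BAP and EST roots, and REV had values of -0.08 and 0.11 in these comparisons. Of SMXL3, SMXL4 and SMXL5, which are known from phloem formation, SMXL3 rose (0.82) and SMXL4 (-1.69) and SMXL5 (-0.51) fell in EST roots at 24 h. SMXL4 (0.62) and SMXL5 (1.14) were higher in EST + BAP than in EST roots at 24 h. At 4 h, PHB (-0.55), SMXL4 (-0.81) and SMXL5 (-0.57) were lower in EST + BAP than in BAP roots, beside 0.144% of all genes. SMXL3 (0.12) and the other class III HD-ZIP genes were not called there. None of these 14 tested genes of the 3 lists had a called EST by BAP interaction at 24 h, beside 0.98% of all genes positive and 0.423% negative. MP was nearest to a call there (0.53, adjusted p = 0.0572).

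In the rest of the DOF family, 19 of 26 genes outside the 10 were tested at 24 h. In EST roots 2 rose and 2 fell, beside 6.26% and 8.96% of all genes, with a median of 0.09: DAG2, known from seed germination, fell by 1.08 on the log2 scale, AT5G65590 fell as well (adjusted p = 6.37e-04), and CDF1, a cycling DOF factor of photoperiodic flowering, rose by 0.79. The median of the 8 vascular genes was -0.59. For EST + BAP over EST, 3 were higher and 3 lower outside the 10, beside 16.5% and 13.8% of all genes, led by OBP4 (-1.29), CDF1 (-1.18) and CDF3 (-0.92). BAP alone at 24 h called 1 of these 19 higher and 6 lower, beside 17.6% and 17.2% of all genes (CDF1 -1.09, AT4G24060 -0.72 and DOF4.1 -0.65 had the smallest p). BAP at 4 h called 0 of 19 higher and 4 lower, beside 9.64% and 7.14% of all genes, and AT4G24060 (-0.79), DOF4.1 (-1.05) and CDF1 (-1.07) had the smallest p there. None of the 19 had a called EST by BAP interaction at 24 h, beside 0.98% of all genes positive and 0.423% negative. The difference between the 2 groups of genes was not tested.

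**Figure D4:**
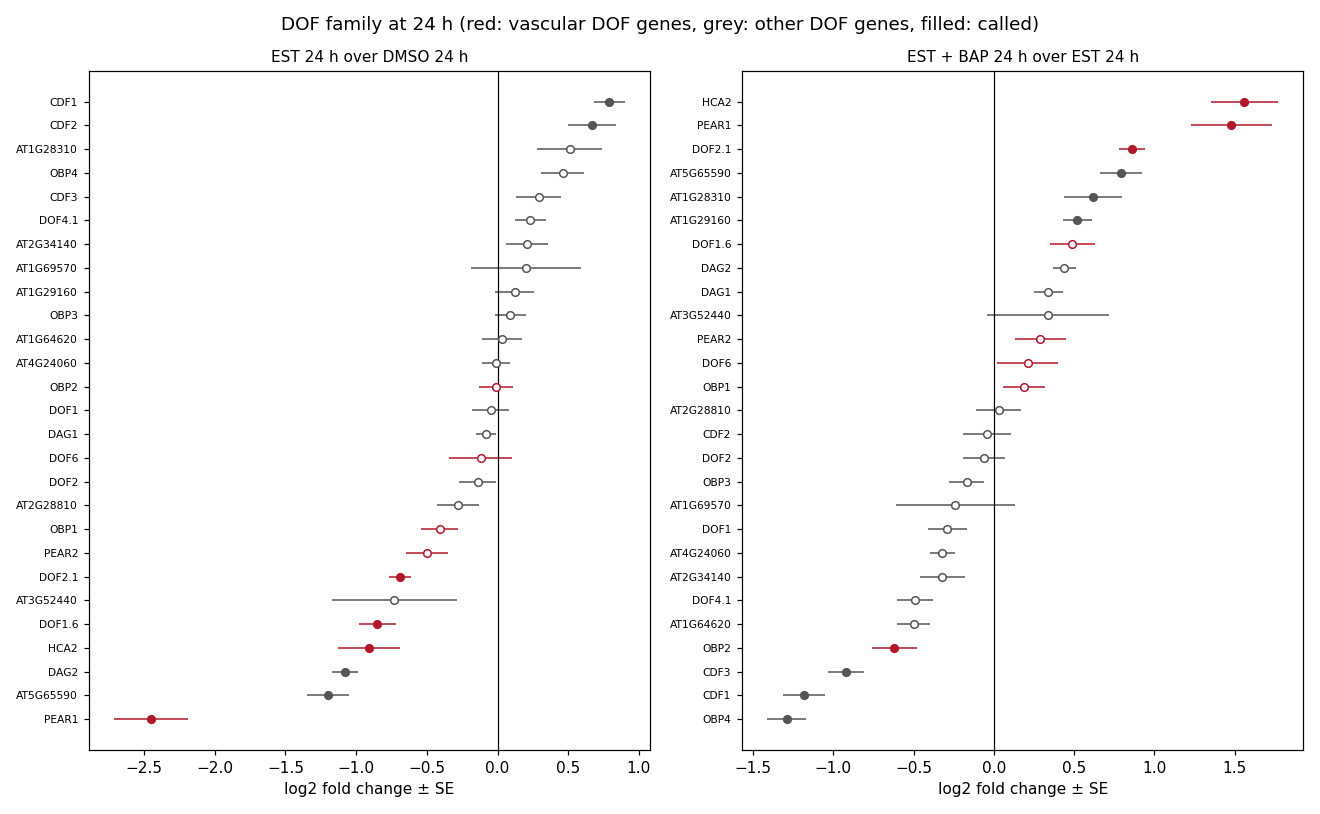
Log2 fold change ± SE (horizontal axis) of every tested DOF gene (rows, sorted) for EST over DMSO and for EST + BAP over EST at 24 h; red marks the vascular DOF genes, grey the other DOF genes, and filled points were called. PEAR1 (-2.45) is the lowest of the family on the left, and HCA2 (1.56) and PEAR1 (1.48) are the highest on the right.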

How the data were processed

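Roots of 24 libraries were compared (8 groups of 3). The authors trimmed the reads with Trimmomatic 0.36, quantified transcripts with Kallisto 0.43.0 on AtRTD2 and deposited gene-wise counts as whole numbers without normalisation. Kallisto shares reads among similar transcripts, so counts of near-identical paralogs are uncertain.

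From the deposited counts, edgeR 4.0.16 in R 4.3.3 was run for each pair of groups with TMM scaling, filterByExpr (minimum count 10) and the quasi-likelihood test, with Benjamini-Hochberg adjustment over all tested genes, on the study's thresholds (absolute log2 fold change of at least 0.5, adjusted p of at most 0.05; adjusted p alone for interactions, fitted on 12 libraries). Groups and replicate numbers came from the sample labels. The labels do not say what a replicate number stands for, and the study reports 3 repeats of the experiment at each time. P-values rest on the spread between these libraries, and the main fits hold no pairing by replicate number. Replicates differed by more than sampling noise (chi-square per degree of freedom of at least 8.19). CPM are TMM-normalised, and depth is given in the report. DESeq2 1.42.0 and the other alternatives were run on the same counts. The tests were tested on simulated data.

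Same-numbered libraries deviated together (every correlation over 0.1) in 6 of 12 pairs of groups within a time. EST with DMSO was not among these pairs at either time. The replicate block was run as an alternative for every comparison, whatever these correlations were. Of the loci in the table, 33437 matched TAIR10.1, which gave gene symbols, lengths and positions; other names of members came with the gene list. The 280 organelle and ribosomal RNA genes stayed in the fit and were left out as an alternative. Of the family outside the 10, the 3 called genes with the smallest p per comparison are named where that comparison is described; every gene of the smaller lists and the 3 most alike patterns of PEAR1, HCA2 and DOF1.6 were named by rule. The members and lists were chosen with earlier results of these data known.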

Additional observations from a re-analysis of the deposited data

Results flagged for a closer look

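Effects that differed between conditions by a test of the difference were PEAR1, HCA2 and DOF2.1 for EST by BAP at 24 h (1.37, 1.54 and 0.54 on the log2 scale). There the estimated effect of BAP differed with EST. In 12 fits without 1 library, the calls of PEAR1 and DOF2.1 were each lost in 10 and that of HCA2 in 0. The HCA2 and DOF2.1 calls were lost without both DMSO and BAP 24 h replicate 1. PEAR1 and DOF1.6 differed between 24 h and 4 h of EST (-1.41 and -1.19), and DOF1.6 between 24 h and 4 h of BAP (-0.77). The 4 h and 24 h experiments were harvested separately, so time and experiment cannot be told apart in the last 3 values. In 12 fits without 1 library, the EST time call was lost in 8 for PEAR1 and in 4 for DOF1.6. The BAP time call of DOF1.6 was lost in 11 of 12. Groups of 3 libraries were not tested for a single library far from the others.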

How the results depend on the processing

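The number of these DOF genes called stayed within 1.5 times in 90 of 97 fits with another setting and in 68 of 108 fits without 1 library, and no called fold change turned its direction. With DESeq2, 1 gene was called for EST + BAP over BAP at 4 h and 2 for EST + BAP over EST at 4 h, and with no filter on low counts 1 for EST + BAP over BAP at 4 h. Without the log2 cutoff 2 genes were called for BAP at 24 h. With the replicate block 1 gene was called for the EST by time term in place of 2, and the block changed no other call of these genes. Without DMSO and BAP 24 h replicate 1, an alternative chosen after seeing the data, 1 gene was called for the EST by BAP interaction at 24 h and 0 for the BAP by time term. In the fit on all 24 libraries the DOF2.1 interaction was lost. The cause of these differences was not tested.

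Leaving out 1 library at a time gave 1 to 1 called genes for EST + BAP over DMSO at 4 h, 0 to 1 for EST + BAP over EST at 4 h, 0 to 1 for BAP at 24 h, 1 to 2 for the EST by BAP interaction at 24 h, 0 to 2 for EST by time and 0 to 1 for BAP by time. Fewer libraries enter each of these fits. In the other comparisons it gave 3 to 4 for EST at 24 h, 2 to 3 for EST + BAP over DMSO, 2 to 4 over BAP and 4 to 5 over EST at 24 h.

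The lowest counts limit PEAR1 in EST roots at 24 h (16 to 28 counts a library) and leave DOF5.8 untested.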
